A study of Rattus norvegicus with 20 samples.

Results

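Tubulin genes were followed in the livers of male Wistar rats, which are outbred, on a mildly reduced diet. Members were the probe sets annotated to exactly 1 of 6 genes, Tubb2a, Tubb2b, Tubb5, Tuba1a, Tuba1b and Tuba4a. The rule was met by 5 of 15866 probe sets, which covered 4 of the 6 genes. These were 1373718_at for Tubb2a, 1388131_at for Tubb2b, 1370290_at and 1387892_at for Tubb5, and 1371542_at for Tuba4a. Tuba1a and Tuba1b had no probe set of their own, and 1 probe set, 1367579_a_at, was annotated jointly to Tuba1b, Tuba1c and Tuba1a. Of the member probe sets, 4, of 3 genes, were among the 9520 probe sets past a filter on low signal and were tested, while the Tubb2b probe set lay under the filter. The genes were chosen by the difference between restricted and control livers in these same arrays, so that difference is given below as a description with no test.

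The series' design text has the diet begin at 6 weeks of age. The restricted groups received 5, 10, 20 or 30% less food for 1 month or for 1 week, and 1 control group at each duration had no restriction. Every rat, controls included, went 16 h without food before its liver was collected. The labelled age is 9 weeks on the 1 month arrays and 6 weeks on the 1 week arrays, and what time point it refers to is not stated, so the ages at sampling are uncertain. RNA of 5 rats was pooled for each of the 10 conditions and each pool was run on 2 Affymetrix rat arrays, so the 8 restricted and 2 control pools are the replicates and arrays of 1 pool are repeats of 1 RNA. No condition had a second pool, so p-values below rest on residuals of pools around each model, not on the spread between rats. Duration cannot be told apart from age or from any difference in when the groups were processed.

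Alpha- and beta-tubulin join into heterodimers that polymerise into microtubules, the tracks on which motor proteins move vesicles, organelles and chromosomes. In hepatocytes microtubules carry secretory vesicles with albumin and lipoproteins to the cell surface, and help to place lipid droplets and endosomes. Cells hold several alpha and beta isotypes encoded by separate, nearly identical genes. The amount of tubulin mRNA is known to be autoregulated: when free heterodimers accumulate, the mRNAs being translated on ribosomes are degraded. Tubb2a and Tubb2b encode closely related class II beta-tubulins, Tubb5 encodes the widespread class I beta-tubulin, and Tuba1a, Tuba1b and Tuba4a encode alpha-tubulins. Because the coding sequences are so alike and pseudogenes are many, a probe set named for 1 tubulin may also bind transcripts of another, and the assignment to a gene is uncertain for all of them.

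The promoter sequences of the 3 genes with tested probe sets are shown because their signals differed together between restricted and control livers. Each is the 250 bases before the transcription start given in the promoter table, from RefSeq on build GRCr8, written 5′ to 3′ on the strand of the gene, and capitals mark matches to 6 motifs searched on both strands. All 6 member genes had a promoter in that table, and the starts used for Tuba4a and Tuba1a lie inside the annotated span of the gene. The letters searched were TATAAA for the core of the TATA box, which places the start of transcription, and CCAAT for the box of that name, which the factor NF-Y binds. GGGCGG stood for the GC box of Sp-family factors. TGACGTCA stood for the cyclic AMP response element, bound by the factor CREB. CACGTG stood for the E-box bound by clock and other factors, and TTATGTAA for the D-box bound by factors such as DBP. The Tubb2a window is chr17:31001936-31002185 on the plus strand, that of Tuba4a chr9:84162585-84162834 on the minus strand, and that of Tubb5 chr20:2917327-2917576 on the plus strand.
Tubb2a: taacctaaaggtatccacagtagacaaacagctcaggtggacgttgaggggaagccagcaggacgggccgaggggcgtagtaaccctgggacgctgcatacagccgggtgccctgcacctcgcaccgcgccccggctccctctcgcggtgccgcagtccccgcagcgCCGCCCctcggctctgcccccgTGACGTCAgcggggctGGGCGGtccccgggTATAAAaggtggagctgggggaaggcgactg
Tuba4a: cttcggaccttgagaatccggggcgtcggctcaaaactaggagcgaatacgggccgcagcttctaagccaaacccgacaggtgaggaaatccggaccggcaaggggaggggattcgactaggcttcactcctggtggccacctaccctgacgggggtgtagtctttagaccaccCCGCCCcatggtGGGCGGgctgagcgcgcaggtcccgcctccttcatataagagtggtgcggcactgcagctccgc
Tubb5: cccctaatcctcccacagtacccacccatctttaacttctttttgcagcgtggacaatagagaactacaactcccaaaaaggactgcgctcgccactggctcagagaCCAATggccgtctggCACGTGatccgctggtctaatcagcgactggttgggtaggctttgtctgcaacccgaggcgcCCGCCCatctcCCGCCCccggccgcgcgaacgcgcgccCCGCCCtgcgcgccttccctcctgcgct
The Tubb2a window held a cyclic AMP response element whose first base lay 61 bases before the start, a TATA box core at 31 bases, and GC boxes at 45 bases and, on the opposite strand, at 83 bases. None of these matches overlapped another. Among the 6 member genes the cyclic AMP response element was found in Tubb2a only, and 1.59% of 33469 rat promoter windows of this length held it. The exact letters TATAAA, also found in Tubb2a only, were in 12.9% of all windows. Other forms of the TATA box were not searched, and the Tuba4a and Tuba1a windows hold the related letters TATAAG. Tuba4a held GC boxes at 64 bases and, on the opposite strand, at 76 bases. Tubb5 held a CCAAT box at 143 bases, an E-box at 128 bases and opposite-strand GC boxes at 66, 55 and 28 bases. GC boxes were in 30.5% of all windows, CCAAT boxes in 34.0%, E-boxes in 5.59% and D-boxes in 0.828%, and no member window held a D-box. A CCAAT box was also found in Tubb2b, on the opposite strand at 193 bases, in Tuba1a at 158 bases and in Tuba1b at 96 bases. A match describes these letters and shows neither binding nor regulation.

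Tubb2a was far lower in every restricted pool than in either control pool. Its signal, in quantile-normalised array units, was 434 and 520 on the 2 arrays of the control pool at 1 month. At 1 month it was 41.5 and 32.02 with 5% restriction, 42.2 and 30.9 with 10%, 44.6 and 31.5 with 20%, and 95.1 and 96.7 with 30%. At 1 month the arrays of the 5, 10 and 20% pools overlapped one another, and both arrays of the 30% pool lay above all of them and below the control. At 1 week it was 633 and 552 in the control pool, 213 and 188 with 5% restriction, 101 and 86.6 with 10%, 41.4 and 33.2 with 20%, and 37.0 and 26.7 with 30%. At 1 week the arrays of 0, 5, 10 and 20% did not overlap and each level lay below the one before it, whereas the arrays of 20 and 30% overlapped.

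**Figure D1:**
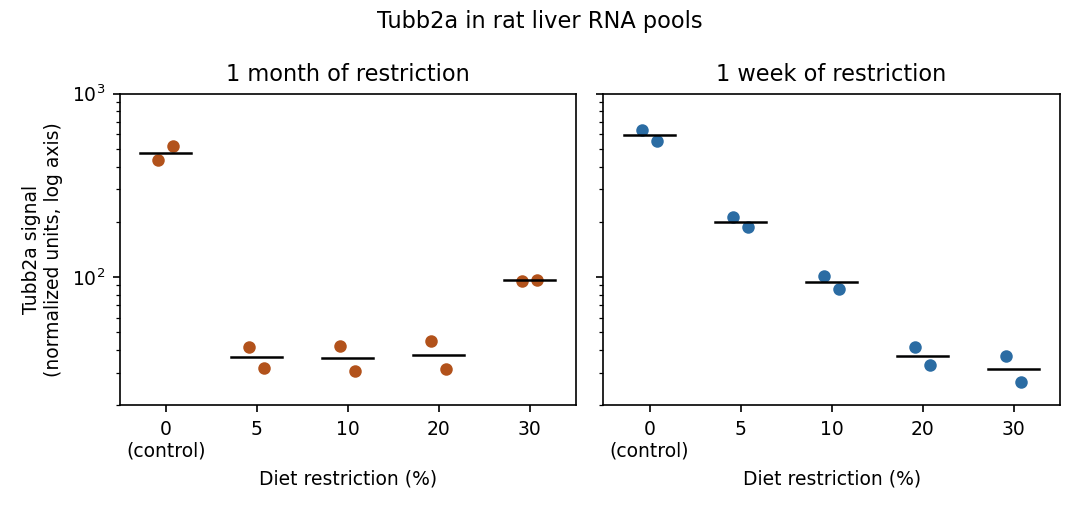
Tubb2a signal in normalised units on a log axis against diet restriction in percent, at 1 month (left) and 1 week (right). Points are single arrays and bars are pool means on the log scale. Control pools lie at 475 and 591 at 1 month and 1 week, and all 8 restricted pools lie between 31.4 and 200.1.

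Ordered by level, the 1 week control pool came first at 591, followed by the 1 month control at 475 and the pool on 5% restriction for 1 week at 200.1. The pools on 30% for 1 month, at 95.9, and on 10% for 1 week, at 93.6, came next and their arrays overlapped. The remaining 5 pools lay between 37.4 and 31.4, and neighbours among them overlapped on their arrays. These were the pools on 20% at both durations, on 5 and 10% for 1 month and on 30% for 1 week. Arrays of neighbouring pools were apart at all other steps of the order, and repeat arrays of 1 pool had a Tubb2a SD of 0.235 (log2).

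Over all pools, Tubb2a averaged 56.5 in the 8 restricted pools, with an SD of 0.98 on the log2 scale, and 530 in the 2 control pools. The difference was -3.23 on the log2 scale, a 9.38-fold lower level, with no overlap between the pools. It was the 3rd lowest of the 9520 differences. At 1 month the difference was -3.35 and at 1 week -3.11. Set against the control pool of its own duration, Tubb2a was 13.0, 13.2, 12.7 and 4.95 times lower with 5, 10, 20 and 30% restriction for 1 month. The same values at 1 week were 2.95, 6.31, 15.9 and 18.8 times. In these whole-liver samples, fewer cells of a type and less RNA per cell cannot be told apart.

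Tuba4a, an alpha-tubulin whose human and mouse genes lack the codon for the terminal tyrosine of most alpha-tubulins, had the next largest difference among the members. At 1 month its signal was 144 and 163 in the control pool, 87.4 and 79.7 with 5%, 69.7 and 65.9 with 10%, 76.1 and 59.95 with 20%, and 81.5 and 59.9 with 30% restriction. At 1 week it was 164 and 149.5 in the control pool, 121.7 and 102.3 with 5%, 96.1 and 90.7 with 10%, 55.9 and 61.5 with 20%, and 50.3 and 66.0 with 30%. Every restricted array lay below every control array, and at 1 month the arrays of the 10, 20 and 30% pools overlapped. Restricted pools averaged 74.4 and control pools 155, a difference of -1.06 on the log2 scale, or 2.08-fold lower. In order of level the 2 control pools overlapped, and the pools on 5 and 10% for 1 week followed, each apart from its neighbours. From the pool on 5% for 1 month downward, neighbouring pools overlapped.

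Tubb5 was read by 2 probe sets, which both showed a smaller difference. By 1370290_at, signal at 1 month was 56.4 and 58.7 in the control pool, 30.4 and 39.3 with 5%, 41.7 and 38.7 with 10%, 37.9 and 33.9 with 20%, and 35.8 and 32.01 with 30% restriction. At 1 week by the same probe set it was 57.6 and 54.8 in the control pool, 39.2 and 50.5 with 5%, 38.0 and 42.5 with 10%, 32 and 36.9 with 20%, and 30.0 and 44.1 with 30%. No restricted array reached a control array, and all neighbouring restricted pools overlapped. Restricted pools averaged 37.3 and control pools 56.9, a 1.52-fold lower level (-0.61 on the log2 scale). By 1387892_at, signal at 1 month was 70.9 and 88.3 in the control pool, 58.5 and 52.3 with 5%, 51.3 and 63.8 with 10%, 59.9 and 69.6 with 20%, and 69.6 and 73.4 with 30%. At 1 week by that probe set it was 98.3 and 88.9 in the control pool, 76.8 and 69.8 with 5%, 64.3 and 52.2 with 10%, 62.7 and 56.6 with 20%, and 45.6 and 57.5 with 30%. Its pool means did not overlap between restricted and control livers, but single arrays of the pools on 30% for 1 month and 5% for 1 week exceeded the lower array of the 1 month control. Restricted pools averaged 60.9 and control pools 86.0 by 1387892_at, a 1.41-fold lower level (-0.50).

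Tubb2b, the neighbour of Tubb2a on chromosome 17, was near the bottom of the array's range. Its pools lay between 3.01 and 16.7 in restricted livers and at 7.89 and 12.7 in control livers. Of the 10 pools, 8 were under 11.7, the lowest mean signal tested, and the groups overlapped. Its 2 arrays of 1 pool read 14.7 and 1.39 with 30% restriction for 1 month, so no order of its levels can be read.

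The probe set shared by Tuba1b, Tuba1c and Tuba1a, which does not tell these alpha-tubulins apart, averaged 354 in restricted and 656 in control pools, 1.85-fold lower. Its restricted pools lay between 271 and 482, and the control pools at 605 and 712. The lowest pools were those on 30% restriction at both durations, 1.10 below their control on the log2 scale at 1 month (-1.10) and 1.39 below at 1 week (-1.39).

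**Figure D2:**
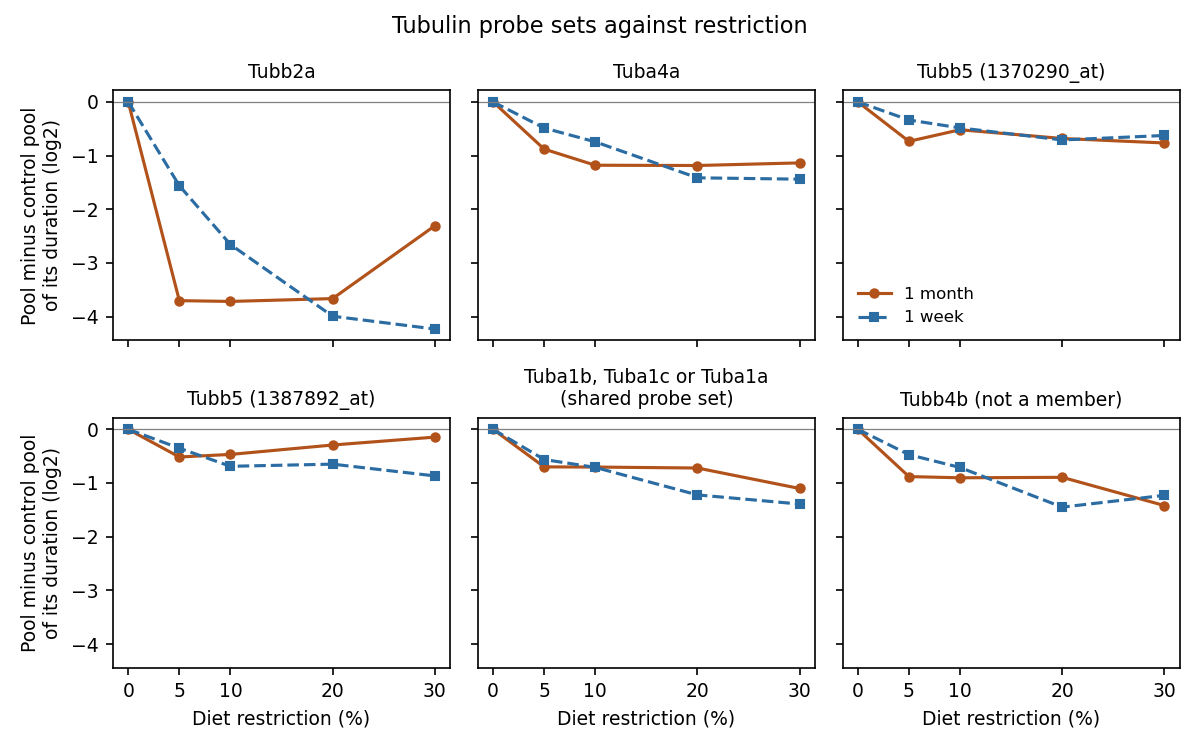
Log2 difference of each pool from the control pool of its duration against diet restriction in percent, for the tested member probe sets, the shared Tuba1 probe set and Tubb4b. Circles with solid lines are 1 month and squares with dashed lines 1 week. Tubb2a reaches -3.72 at 1 month and -4.23 at 1 week, while no Tubb5 pool goes below -1.

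All 4 tested member probe sets were lower in restricted than in control pools with no overlap of pool means, as were 6.75% of all probe sets tested. Tubb2a and Tuba4a were lower by at least 1 on the log2 scale with no overlap, as were 0.798% of all probe sets. These counts follow from how the genes were chosen and nothing is read from them. Quantile normalisation left the median difference of all tested probe sets at 0.0023, whereas the deposited signals, which are not on 1 scale, put it at 0.25. The difference for Tubb2a was -3.02 and that for Tuba4a -0.80 in deposited signals. Taken relative to that median of all probe sets they were -3.27 and -1.05. The Tubb5 differences were -0.34 for 1370290_at and -0.24 for 1387892_at in deposited signals, not taken relative to that median. With median centring of the arrays they were -0.57 and -0.47.

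A rule of size was also applied to each restricted pool, which had to be at least 1 lower (log2) than the control of the same duration with both arrays below both control arrays. Tubb2a met this rule in 8 of 8 comparisons. Tuba4a met it in 5 of 8, with 10, 20 and 30% restriction at 1 month (-1.18, -1.19 and -1.14) and with 20 and 30% at 1 week (-1.41 and -1.44). Neither Tubb5 probe set met it in any comparison. Of all tested probe sets, 2.34% met the rule with 5% restriction for 1 month, 2.72% with 10%, 2.05% with 20% and 2.16% with 30%. At 1 week the shares were 1.93% with 5%, 1.39% with 10%, 2.33% with 20% and 3.22% with 30%.

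The contrasts that did not choose the genes were tested with limma over all 9520 probe sets with Benjamini-Hochberg adjustment at 0.05. The first was the slope of signal over restriction among the 8 restricted pools, given per 25 percentage points, which is the span from 5 to 30%. No member slope was called, while 46 probe sets (0.483%) were. For Tubb2a the slope was -0.66 ± 0.657 (SE, limma adjusted p = 0.735), and it was 0.16 without the pool on 5% for 1 week, 0.051 without the pool on 30% for 1 week and -1.99 without the pool on 30% for 1 month. With the GAPDH 3′ to 5′ ratio as a covariate it was -1.50 (limma adjusted p = 0.661, and 0.608 to 0.914 over the settings that kept all arrays). For Tuba4a it was -0.60 ± 0.191 (limma adjusted p = 0.202). The Tubb5 slopes were -0.20 ± 0.152 for 1370290_at (limma adjusted p = 0.642) and -0.02 ± 0.173 for 1387892_at (limma adjusted p = 0.986). The shared Tuba1 probe set had a slope of -0.63 ± 0.126 that also missed the threshold (limma adjusted p = 0.0613).

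Tubb2a had slopes over restriction of opposite sign at the 2 durations, and their difference missed the threshold. Its slope among restricted pools was 1.32 per 25 points at 1 month and -2.64 at 1 week, a difference of 3.96 ± 0.589 (SE, limma adjusted p = 0.0578). No probe set was called for this difference (0%), 1328 had an unadjusted p under 0.05, and Tubb2a was 5th by p among the 9520, one of 12 probe sets that shared the lowest adjusted p. At 1 month the pools on 5, 10 and 20% lay at 36.5, 36.1 and 37.4 and the pool on 30% at 95.9. The size of the positive slope thus rested on that 1 pool. Single 30% pools moved the slope difference. Without the pool on 30% for 1 month it was 2.72 (limma adjusted p = 0.539), and without the pool on 30% for 1 week it was 5.27 (limma adjusted p = 0.0148). It was also called without array 1 of the pool on 30% for 1 week (4.18, limma adjusted p = 0.0411), without array 2 of the pool on 30% for 1 month (3.95, limma adjusted p = 0.0467) and with array 1 of every pool alone (3.63, limma adjusted p = 0.0436). Over all the leave-out settings the adjusted p ran from 0.0148 to 0.539, and over the other settings from 2.65e-06 to 0.233. The lowest came from the deposited signals, which are not on 1 scale. The 2 arrays of the pool on 30% for 1 month read 58.6 and 157 for Tubb2a as deposited, and these arrays had the lowest and the highest median signal of all 20, 14 and 33.2. Tubb2a at 1 month minus 1 week was -2.46 on the log2 scale with 5% restriction, -1.38 with 10%, 0.01 with 20% and 1.61 with 30%, against -0.32 in the control pools.

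The same difference of slopes was positive but not called for the other members. Tuba4a had slopes of -0.19 at 1 month and -1.02 at 1 week, a difference of 0.83 ± 0.293 (SE, limma adjusted p = 0.258), which ran from 0.33 with array 2 of every pool alone to 1.38 without the pool on 30% for 1 week. By 1387892_at, Tubb5 had slopes of 0.38 and -0.41 at 1 month and 1 week, a difference of 0.80 ± 0.250 (limma adjusted p = 0.211). By 1370290_at the difference was 0.19 ± 0.300 (limma adjusted p = 0.820).

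Averaged over the 5 diet levels, 1 month minus 1 week was -0.51 ± 0.437 (SE) for Tubb2a (limma adjusted p = 0.744), running from -1.03 without the pool on 30% for 1 week to -0.017 without the pool on 5% for 1 month. It was -0.09 ± 0.125 for Tuba4a (limma adjusted p = 0.861). The Tubb5 values were -0.07 ± 0.110 by 1370290_at (limma adjusted p = 0.862) and -0.01 ± 0.128 by 1387892_at (limma adjusted p = 0.983). No member was called in this comparison, in which 36 probe sets (0.378%) were. The difference between restricted and control pools also did not differ detectably between durations. For Tubb2a that difference at 1 month minus that at 1 week was -0.24 ± 1.16 (limma adjusted p = 0.999), for Tuba4a -0.07 ± 0.442 (limma adjusted p = 0.999). For Tubb5 it was -0.14 ± 0.266 by 1370290_at (limma adjusted p = 0.999) and 0.28 ± 0.291 by 1387892_at (limma adjusted p = 0.983). No probe set was called there (0%), and 551 had an unadjusted p under 0.05. With an SE of 1.16, a difference of 1 log2 unit between durations in this comparison was not detectable for Tubb2a.

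**Figure D3:**
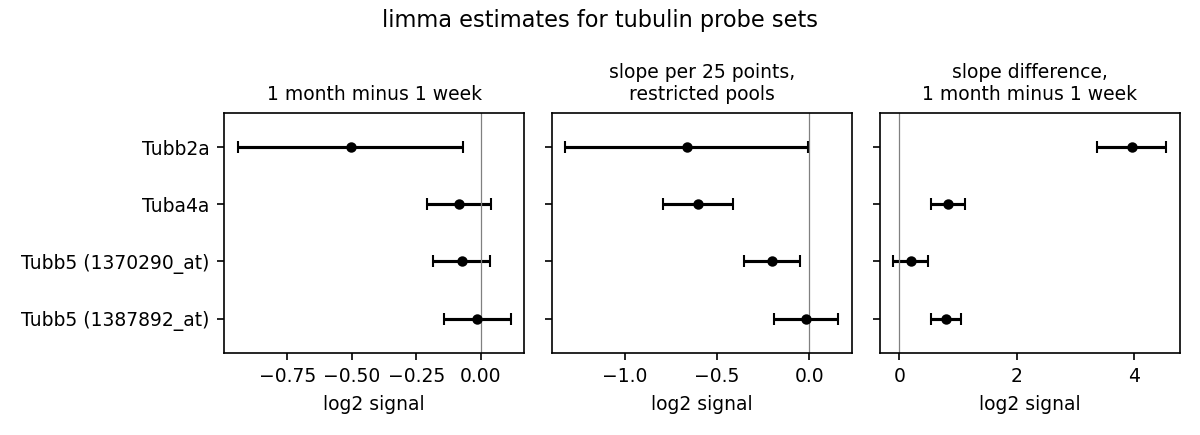
limma estimates on the log2 scale for the 4 tested member probe sets, with bars of 1 SE. Panels show 1 month minus 1 week over all diet levels, the slope per 25 percentage points among restricted pools, and the slope at 1 month minus the slope at 1 week. The slope difference of Tubb2a, 3.96, lies farthest from 0.

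Across the 10 pools the other tested members varied together with Tubb2a. These r values include the difference between restricted and control pools by which the genes were chosen. For Tubb2b, with 8 of the 10 pools under 11.7, the lowest mean signal tested, r cannot be read either way. Pearson's r of log2 signal with Tubb2a was 0.94 for Tuba4a, 0.91 and 0.90 for the Tubb5 probe sets 1387892_at and 1370290_at, and 0.05 for Tubb2b. Over the 8 restricted pools alone, which leave out the difference from control, r was 0.80 for Tuba4a, 0.76 and 0.59 for the same Tubb5 probe sets, and -0.25 for Tubb2b. The probe sets correlated were read on the same arrays with the same normalisation, and may bind each other's transcripts.

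The genes whose pool levels were most like those of Tubb2a were found by r over the 10 pools among all 7056 genes. The first 8 were Pnkd (0.986), the sterol reductase gene Dhcr7 (0.976), the monocarboxylate transporter gene Slc16a1 (0.972), Rnf11l2 (0.972), Pgpep1 (0.971), the actin-binding coronin gene Coro1c (0.970), Litaf (0.963) and the mitochondrial chaperone gene Clpx (0.962). Pnkd averaged 116 in restricted and 327 in control pools. It was also first over the 8 restricted pools, with an r of 0.972. Of these genes 2, Pnkd and Slc16a1, were also among the first 8 over the restricted pools alone.

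Of 14 other tubulin genes, 5 had a probe set of their own and 2 were tested. Tubb4b, a beta-tubulin of many tissues, averaged 219 in restricted and 436 in control pools, 1.99-fold lower with no overlap. Its arrays read 156.5 and 148.5 with 30% restriction for 1 month, against 366 and 456 in the control. At 1 week they read 213 and 186 with 30%, against 442 and 491 in the control. Its slope among restricted pools was -0.68 ± 0.170 (SE, limma adjusted p = 0.116), and its r with Tubb2a was 0.84 over 10 pools and 0.53 over the restricted 8. Tubg1, the gamma-tubulin that nucleates microtubules at centrosomes, averaged 49.8 in restricted and 57.1 in control pools with overlap, a difference of -0.20. The Tubg1 difference was 0.07 in deposited signals, where the median of all tested probe sets was 0.25, and -0.16 with median centring. Tubb3, Tubb6 and Tuba8 lay under the filter, with Tubb6 averaging 2.35 in restricted and 9.76 in control pools.

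The genes that handle tubulin were read against the array as a whole, where 6.80% of 7056 genes were lower and 7.40% higher in restricted pools with no overlap and the median difference was -0.0011. Of 20 tested genes of tubulin folding, 3 were lower without overlap and 2 higher, with a median of 0.08. The lower ones were Tbce (60.2 in restricted and 90.3 in control pools) and Tbcd (70.1 and 87.5), cofactors that assemble the heterodimer, and the prefoldin gene Pfdn1 (79.9 and 104.5). The phosducin-like gene Pdcl3 averaged 29.2 in restricted and 44.5 in control pools with overlap. Of 7 genes of tubulin modification, Ttll5, a polyglutamylase, was lower (15.5 in restricted and 21.2 in control pools), and the median was -0.06. Svbp, the partner of the vasohibin carboxypeptidases, averaged 21.4 in restricted and 14.8 in control pools with overlap.

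Of 16 tested genes of microtubule dynamics and binding, 1 was lower and 3 higher, with a median of 0.07. The higher ones were Tacc1 (20.2 in restricted and 11.5 in control pools) and Tacc2 (44.7 and 31.2), of a family of centrosomal coiled-coil proteins, and the plus-end binding Mapre2 (40.6 and 23.8). Its relative Mapre3 averaged 26.6 in restricted and 41.8 in control pools with overlap. The control average of Tacc1 was under 11.7, the lowest mean signal tested. Of 20 motor genes, 3 were lower and 1 higher, with a median of -0.03. The kinesins Kif5a (13.6 in restricted and 22.9 in control pools) and Kif1c (23.6 and 37.8) were lower, and the dynein light chain gene Dynll2 was higher (358 and 287). No gene of these lists was called for duration or for the restricted slope.

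**Figure D4:**
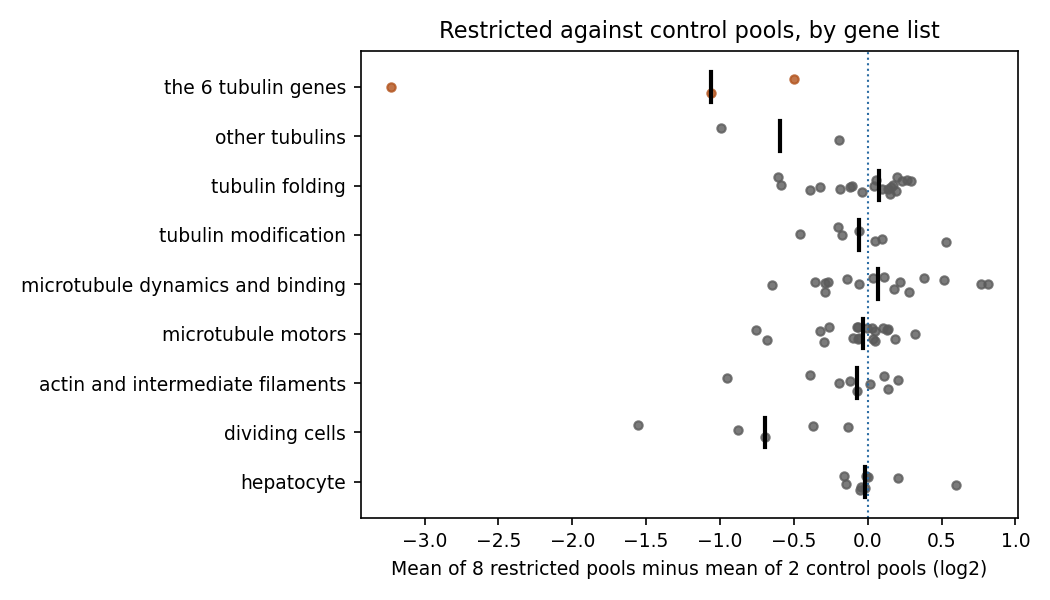
Mean of the 8 restricted pools minus mean of the 2 control pools on the log2 scale, for each tested gene of each list (points, brightest probe set of a gene) with the median of the list (bar). The dotted line is the median of all genes, -0.0011. Tubb2a lies alone at -3.23, and the medians of the folding, dynamics and motor lists lie between -0.03 and 0.08.

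Of 9 tested genes of actin and intermediate filaments, Actg1, the gamma actin of non-muscle cells, averaged 538 in restricted and 1042 in control pools with no overlap, a difference of -0.95. Acta2 was also lower (17.4 and 22.8), and the list's median was -0.07.

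Summed signals of some marker lists differed between the same groups without overlap. Of all 7056 tested genes, 6.80% were lower and 7.40% higher in restricted pools without overlap. How often sums of other gene lists fail to overlap was not worked out. The summed signal of 9 measured markers of dividing cells was 146 to 207 in restricted and 248 to 278 in control pools. Of the 5 tested markers, 2 were lower without overlap, Ccnb1 (9.97 in restricted and 29.3 in control pools) and Birc5 (10.5 and 19.3). Both averaged under 11.7, the lowest mean signal tested, in restricted pools, so they passed the filter through their control pools. Pcna (110 and 121), Ube2c (15.0 and 24.2) and Mcm2 (11.5 and 14.8) overlapped between the groups. Mki67 (3.62 and 3.55), Top2a (4.73 and 17.4) and Cdk1 (6.19 and 20.3) lay under the filter. Summed signal of 5 measured bile duct markers ran from 43.9 to 61.0 in restricted and 68.6 to 78.4 in control pools. Only 1 of these markers, Epcam, was past the filter, and it was lower without overlap, at 35.0 in restricted and 45.3 in control pools. The defining bile duct markers Krt19 (8.80 in restricted and 8.12 in control pools) and Krt7 (5.52 and 13.6) lay under the filter. Summed Kupffer cell and macrophage markers ran from 690 to 892 in restricted and 901 to 957 in control pools, with 1 of 7 tested genes, Csf1r, lower without overlap. The median difference of this list was 0.013, and most of the lower sum was Lyz2, at 325 in restricted and 427 in control pools with overlap. Summed endothelial markers were 302 to 373 in restricted and 222 to 276 in control pools, with 1 of 5, Kdr, higher without overlap. Sums of hepatocyte markers, at 38164 to 39597 in restricted and 38622 to 39023 in control pools, overlapped, and 1 of 9, Cyp2e1, was higher. Alb, part of these sums, averaged 10756 in both groups after quantile normalisation, so it could add nothing to a difference. Sums overlapped between the groups for nerve markers (61.9 to 86.1 in restricted and 62.9 to 97.8 in control pools), lymphocyte markers, none of them past the filter (26.8 to 47.7 and 44.5 to 51.6), stellate cell markers (484 to 745 and 506 to 646) and red cell markers (1010 to 1882 and 1187 to 2120). Of the marker genes, Ehd3 was called for the restricted slope (1.17, limma adjusted p = 0.039) and Col3a1 for duration (-0.63, limma adjusted p = 0.0181). The part of these markers in the tubulin differences was not tested. The ratio of 3′ to 5′ signal, a measure of RNA integrity, overlapped between restricted and control pools for GAPDH (1.30 to 1.61 and 1.51 to 1.52) and for actin (2.23 to 3.07 and 2.72 to 2.73). For GAPDH 7 of the 8 restricted pools lay below both control pools, and the overlap came from the pool on 5% for 1 month, at 1.61. The pool on 30% for 1 month had the lowest GAPDH ratio, 1.30, and the Tubb2a slope difference was 4.22 ± 0.725 (SE, limma adjusted p = 0.0926) with that ratio as a covariate.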

How the data were processed

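Liver RNA pools were measured on Affymetrix arrays. The authors deposited linear intensity values, 1 per probe set and array, which the submitters' processing notes credit to MAS5. The scaling target and the MAS5 version were not given in the sources used. The 32 zeros were replaced by the lowest positive signal on the same array, 57 control probe sets were left out, and arrays were quantile normalised on the log2 scale. The 2 arrays of a pool were averaged, so n is 10 pools, and their number limits the precision. Array correlations were 0.948 to 0.971 within pools and 0.916 to 0.970 between pools, and arrays of a pool shared at most 141 identical values of 15923. The upper 60% of probe sets by mean signal, 9520, were tested (lowest mean 11.7).

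Models were fitted in R 4.3.3 with limma 3.58.1 (lmFit, then eBayes with trend, two-sided, Benjamini-Hochberg over all 9520). Duration was tested with diet level as a factor, and slopes among the 8 restricted pools with percent as a number and duration as covariate. Differences of slope or of the restricted minus control difference between durations were interaction terms. Tables were made in Python 3.11.15. The scripts were also tested on data made with known answers.

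Genes came from the platform annotation. Of the tested probe sets, 8120 had 1 gene, 245 several and 1155 none listed, and 0 symbols differed from the current rat gene table. The brightest probe set stood for a gene in lists (7056 genes). All member probe sets were described, up to 4 genes per list by size of difference were named, and the 8 genes most correlated with Tubb2a were named, with any list gene past a test's threshold. Members and lists were chosen with earlier results of these data known. Alternatives were the scaling, filter, variance trend, RNA quality covariates, array-level fits and leaving out each array or pool.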

Additional observations from a re-analysis of the deposited data

How the results depend on the processing

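The precision is that of 1 pool per condition on 2 arrays, so no setting measures variation between rats. The direction of the restricted minus control difference held for Tubb2a (-3.49 to -3.06 over the leave-outs), Tuba4a and both Tubb5 probe sets in each setting run. That of Tubb2b became 0.0035 with low pool values raised to the lowest tested level and ran from -0.84 to 0.085 over the leave-outs. For the difference of restricted slopes between durations, Tubb2a was called, as the 1 member, in 4 settings that kept all arrays. These were the deposited signals (3.65, limma adjusted p = 2.65e-06), the upper 40% by signal (3.96, 0.0482) and 2 fits to the single arrays of the restricted pools. Deposited signals are not on 1 scale, and their estimate of 3.65 ± 0.588 (SE) was smaller than the 3.96 ± 0.589 of the main setting. The lower p with them thus did not come from a larger estimate, and the SE was nearly the same. The array-level fits left array number out (3.96, 0.000212) or added it as a covariate (3.96, 0.000347). Both modelled repeat arrays of a pool as correlated, with 1 correlation shared by all probe sets. Repeat arrays are technical and add no pool or rat. The Tubb2a leave-outs ran from 2.72 to 5.27, with 0 to 1 members called. Calls over all probe sets for this contrast numbered 31 with deposited signals, 12 with the upper 40%, and 4 and 1 with the GAPDH and actin ratio as covariate. They numbered 209 and 204 in the array-level fits without and with array number, and 0 to 41 over the leave-outs. For duration they numbered 90 with deposited signals, 1 with median centring, 15 with no filter and 0 with no variance trend. They numbered 6 and 5 with the GAPDH and actin ratio and 14 with a single step for diet. Array-level fits without and with array number gave 312 and 311, and the leave-outs 2 to 48. For the restricted slope they numbered 28 with no filter, 0 with no trend and 0 with either ratio. Array-level fits without and with array number gave 300 and 289, and the leave-outs 2 to 58. For the step difference between durations they numbered 2 with deposited signals and 0 to 19 over the leave-outs. That contrast could not be fitted without a control pool. No member was called for duration, slope or step difference in any setting. Estimates that changed sign follow, none of them called. For duration, deposited signals gave 0.10 for Tubb5 by 1370290_at, 0.17 by 1387892_at and 0.099 for Tuba4a, the GAPDH ratio gave 0.0095 by 1387892_at, and leave-outs ran from -0.20 to 0.048, -0.14 to 0.10 and -0.18 to 0.0090 for these 3. For the slope, Tubb5 by 1387892_at was 0.010 with the actin ratio and -0.22 to 0.19 over the leave-outs, and Tubb2a ran from -1.99 to 0.16. For the step difference, deposited signals gave 0.086 for Tubb2a, 0.10 for Tubb5 by 1370290_at and 0.27 for Tuba4a. Median centring gave 0.028, 0.046 and 0.21 for the same probe sets, and leave-outs ran from -0.61 to 0.28, -0.37 to 0.097 and -0.38 to 0.23. The slope difference of Tubb5 by 1370290_at ran from -0.13 to 0.52. The cause of these changes was not tested. Arrays with the same number did not deviate together (r -0.05 to 0.12 over 45 pairs of pools, median 0.03), so the numbers pair no arrays.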
